A study of Mus musculus with 24 samples.

Results

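The 35 genes described here act in glucose uptake, glycolysis, lactate handling, the control of glycolytic flux, oxygen sensing and the transcriptional response to low oxygen. They were chosen with earlier results of these data known and matched by gene symbol to the estimated counts. All 35 were found among the 39253 genes. Counts and medians of the members set beside those of all tested genes are therefore descriptions. The cells were primary mouse granulosa cells, the steroid-making somatic cells of the ovarian follicle, from C57BL/6 mice given PMSG, a gonadotropin that drives follicle growth, at 23 days of age. Cells pooled from 2 mice were isolated after 48 h of PMSG and plated. They then took up, over 3 h, either a negative control siRNA (siNC) or one against Nts (siNTS), the gene of the peptide neurotensin. Next, plain medium or hCG, which stands in for the ovulatory surge of luteinizing hormone, was given for 12 h or 4 h. The 6 groups of 4 libraries were siNTS with hCG, siNC with hCG, and siNC in plain medium (control), each at 12 h and at 4 h. All groups therefore carried a transfected siRNA, and both siNTS groups also received hCG. Each group had libraries with the replicate labels A_1, A_2, B_2 and B_3, which came from 3 culture dates, A_2 and B_2 sharing a date. Values of single libraries are given in that order of labels.

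Glycolysis splits glucose into pyruvate in the cytosol. Glucose enters through GLUT transporters and is trapped by hexokinases, and pyruvate either enters mitochondria or is reduced to lactate, which leaves through monocarboxylate transporters. When oxygen is low, prolyl hydroxylases of the EGLN family work less, and the alpha subunits of the hypoxia-inducible factors (HIF) that they mark for breakdown accumulate. HIF then binds DNA at sites that often hold the core ACGTG and raises many genes of glycolysis. Granulosa cells work behind the basal lamina of the follicle, without blood vessels of their own before ovulation, and supply pyruvate and lactate to the oocyte.

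Library totals ranged from 26.2 M to 45.4 M estimated counts with a median of 39.2 M, and 15405 genes, including all 35 members, had enough counts to test. Levels are in CPM, counts divided by TMM-scaled library sizes, and log2 fold changes carry their SE. Values of cell type markers are the exception, being CPM of library totals without TMM scaling. The siRNA's target, Nts, had 0.154, 0.121, 0.0764 and 2.73 CPM in siNTS cells at 12 h, against 2.69, 1.56, 1.49 and 9.67 CPM in siNC cells with hCG. At 4 h it had 1.99, 4.39, 4.16 and 42.9 CPM in siNTS cells, against 16.1, 28.7, 22.9 and 180 CPM in siNC cells with hCG. Nts was thus lower in siNTS cells under each label at both times, and it was highest under B_3 in each group. The fit left 19.8% of the siNC level at 12 h and 21.5% at 4 h. These fitted values lean on B_3, where the share left was larger than under the other labels at both times. The test over all genes gave an adjusted p of 1 at both times, and with the replicate label as a block 0.0219 at 12 h and 0.0531 at 4 h (edgeR). Summed granulosa markers, 10 of 10 detected, lay between 1850 and 4860 CPM. Leukocyte, endothelial, fibroblast, oocyte and surface epithelial marker sums stayed at or below 24 CPM in all libraries, and those of theca cells at or below 102 CPM. Erythrocyte markers varied between libraries and, in each group, were lower at 12 h than at 4 h under each label. Controls had 211, 297, 1490 and 120 CPM at 12 h, against 3890, 781, 2720 and 371 CPM at 4 h. The siNTS library B_3 had 169 CPM at 12 h. The part of erythrocyte markers in the results was not tested. In these bulk samples fewer cells of a type and less RNA per cell cannot be told apart.

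One library stood apart for these genes. The siNTS library B_3 at 12 h was the highest of all 24 for 22 of the 35 members, while it was the highest for 3.72% of all tested genes. Of the members, 13 lay more than 1 log2 unit above the mean of the other 3 siNTS libraries, and 4.1% of all tested genes did so. The control library B_3 at 12 h was also high for a few of them, with 5 members more than 1 log2 unit above the other 3 controls, as against 3.01% of all genes.

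The sequence around the start of transcription is shown for 7 members on which the results that follow turn, picked after their values were seen: Egln3 and Hk2 with hCG, and Slc2a1, Ankrd37, Slc16a3, Bnip3 and Pdk1 in the siNTS library B_3. RefSeq promoter windows of 300 bases (GRCm38.p6), which end shortly after the start of transcription, were found for 32 of the 35 members, 47 windows in all; Slc2a3, Ndrg1 and Epas1 had no entry. Capitals mark the HIF core ACGTG or, on the other strand, CACGT, and where both overlap they form the E-box CACGTG. Only this form of the core was searched, so GCGTG, as in the Pdk1 window, is neither marked nor counted. Windows lie at chr12:54203825-54204124 (minus strand) for Egln3, chr6:82774405-82774704 (minus) for Hk2, chr4:119108495-119108794 (plus) for Slc2a1, chr8:45999801-46000100 (minus) for Ankrd37, chr11:120948817-120949116 (plus) for Slc16a3, chr7:138909457-138909756 (minus) for Bnip3 and chr2:71872974-71873273 (plus) for Pdk1.
Egln3: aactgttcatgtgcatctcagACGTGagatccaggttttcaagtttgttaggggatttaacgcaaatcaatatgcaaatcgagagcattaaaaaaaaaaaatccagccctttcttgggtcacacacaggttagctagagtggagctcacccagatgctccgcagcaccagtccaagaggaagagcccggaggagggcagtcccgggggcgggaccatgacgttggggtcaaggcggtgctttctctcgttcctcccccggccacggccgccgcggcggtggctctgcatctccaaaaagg
Hk2: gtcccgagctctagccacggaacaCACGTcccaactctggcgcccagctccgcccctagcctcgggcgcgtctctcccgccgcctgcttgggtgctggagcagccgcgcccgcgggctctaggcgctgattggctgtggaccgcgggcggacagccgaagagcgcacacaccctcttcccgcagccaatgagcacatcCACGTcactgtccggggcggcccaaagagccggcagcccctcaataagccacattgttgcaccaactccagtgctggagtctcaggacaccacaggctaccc
Slc2a1: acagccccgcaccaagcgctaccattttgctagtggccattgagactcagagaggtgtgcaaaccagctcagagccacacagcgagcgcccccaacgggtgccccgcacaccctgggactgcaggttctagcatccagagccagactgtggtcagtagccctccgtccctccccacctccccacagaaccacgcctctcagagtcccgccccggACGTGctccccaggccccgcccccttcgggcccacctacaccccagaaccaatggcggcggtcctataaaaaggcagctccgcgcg
Ankrd37: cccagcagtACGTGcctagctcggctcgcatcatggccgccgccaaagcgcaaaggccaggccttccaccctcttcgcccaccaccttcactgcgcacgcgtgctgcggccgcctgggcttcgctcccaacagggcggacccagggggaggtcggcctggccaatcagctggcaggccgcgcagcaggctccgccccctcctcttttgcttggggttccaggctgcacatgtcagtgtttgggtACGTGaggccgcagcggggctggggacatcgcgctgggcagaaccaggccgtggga
Slc16a3: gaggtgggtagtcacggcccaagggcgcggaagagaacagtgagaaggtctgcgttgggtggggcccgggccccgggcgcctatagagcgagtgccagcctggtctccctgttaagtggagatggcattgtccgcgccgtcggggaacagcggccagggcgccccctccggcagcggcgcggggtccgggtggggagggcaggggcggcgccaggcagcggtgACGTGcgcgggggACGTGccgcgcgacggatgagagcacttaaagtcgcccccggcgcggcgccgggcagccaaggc
Bnip3: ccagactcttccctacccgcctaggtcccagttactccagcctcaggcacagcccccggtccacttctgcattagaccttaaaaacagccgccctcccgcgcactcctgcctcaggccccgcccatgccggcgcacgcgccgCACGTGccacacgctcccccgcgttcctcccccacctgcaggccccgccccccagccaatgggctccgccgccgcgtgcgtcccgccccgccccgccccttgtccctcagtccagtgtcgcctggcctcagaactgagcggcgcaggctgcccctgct
Pdk1: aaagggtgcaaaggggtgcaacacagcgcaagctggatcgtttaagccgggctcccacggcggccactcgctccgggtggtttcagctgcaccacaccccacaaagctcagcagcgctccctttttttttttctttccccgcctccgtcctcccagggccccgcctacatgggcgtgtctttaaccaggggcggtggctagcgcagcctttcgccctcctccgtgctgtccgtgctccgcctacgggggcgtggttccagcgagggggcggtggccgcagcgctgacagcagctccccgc
Hk2, Ankrd37 and Slc16a3 held 2 such sites each, Egln3, Slc2a1 and Bnip3 held 1, that of Bnip3 being an E-box, and Pdk1 held 0. Over all members 27 of 47 windows (57.4%) held the core, and over all 32851 promoter windows of the same length 19.6% did. The cAMP response element TGACGTCA, a palindrome, was in 1 member window, that of Ldha, and in 1.79% of all windows. A match is a description of letters and shows no binding.

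hCG was compared with plain medium in siNC cells, 4 libraries against 4 at each time. Hk2 and Pfkfb4, which act on glucose entry into glycolysis and on its rate, rose with hCG at both times. Pkm, Pgam1, Pfkfb3, Ndrg1 and P4ha2 rose at 12 h, and the oxygen-sensing genes Egln3 and Epas1 rose at 4 h. Pfkm, Aldoc and Pdk1 fell at 4 h. At 12 h, at the threshold of 0.05 on the adjusted p (edgeR's quasi-likelihood test, Benjamini-Hochberg adjustment over all tested genes), 7 of the 35 were higher and 0 lower; DESeq2 and limma-voom also called 0 lower, and 11 members had an unadjusted p under 0.05. The background of the adjusted calls was 16.5% of all tested genes, 8.18% higher and 8.36% lower. Of the 15405 tested genes, 4384 had an unadjusted p under 0.05 at 12 h, and 4824 had one at 4 h. The shares given here are also the background for the smaller groups of members described below. Without replicate A_2, or without B_2, 3 members were higher at 12 h, and the share of all tested genes in these fits is not given. The median log2 fold change was 0.223 over the members and −0.008 over all tested genes. At 4 h, 4 members rose and 3 fell, with a background of 19.1%, 7.95% higher and 11.1% lower; the median was 0.065 over the members and −0.069 over all genes. With the replicate label as a block, 10 members rose and 0 fell at 12 h, where 27% of all genes passed, 13.1% higher and 13.9% lower. Deviations of the A_1 libraries from their group means correlated at −0.692 in this comparison at 12 h. The label did not pair them, which limits calls with the block at 12 h, here and for single members below. At 4 h 6 rose and 3 fell with the block, where 30.1% of all genes passed, 12.8% higher and 17.3% lower. All libraries with hCG were above all controls for 7 members and below them for 1 at 12 h, as for 11.1% of all genes in each direction (22.2% in all). At 4 h this held for 5 members above and 3 below, as for 8.85% and 10.2% of all genes (19% in all). Marker sums moved too: granulosa markers lay between 1910 and 2300 CPM with hCG and between 2740 and 3020 CPM in controls at 12 h, and leukocyte markers between 11 and 14.6 CPM with hCG and between 5.26 and 8.8 CPM in controls. Theca markers lay between 38.6 and 63.4 CPM with hCG and between 63.8 and 102 CPM in controls, and endothelial markers between 10.4 and 15.3 CPM with hCG and between 8.02 and 9.09 CPM in controls. In both groups 5 of 6 theca, 3 of 6 leukocyte and 3 of 6 endothelial markers were under 1 CPM, and 0 of 10 granulosa markers were. In controls 1 theca marker was at 0. The granulosa markers Amhr2, Foxl2, Inhba and Fst were lower in all hCG libraries than in all controls at 12 h, while Cyp19a1 was higher. At 4 h the granulosa and leukocyte sums of the 2 groups overlapped, but 5 of 10 granulosa markers, Fshr, Amhr2, Foxl2, Fst and Hsd17b1, were lower in all hCG libraries than in all controls, and 1 of 6 leukocyte markers, Csf1r, was higher, as were the theca marker Hhip and the surface epithelial marker Lrrn4. The part of these markers in the results was not tested.

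**Figure D1:**
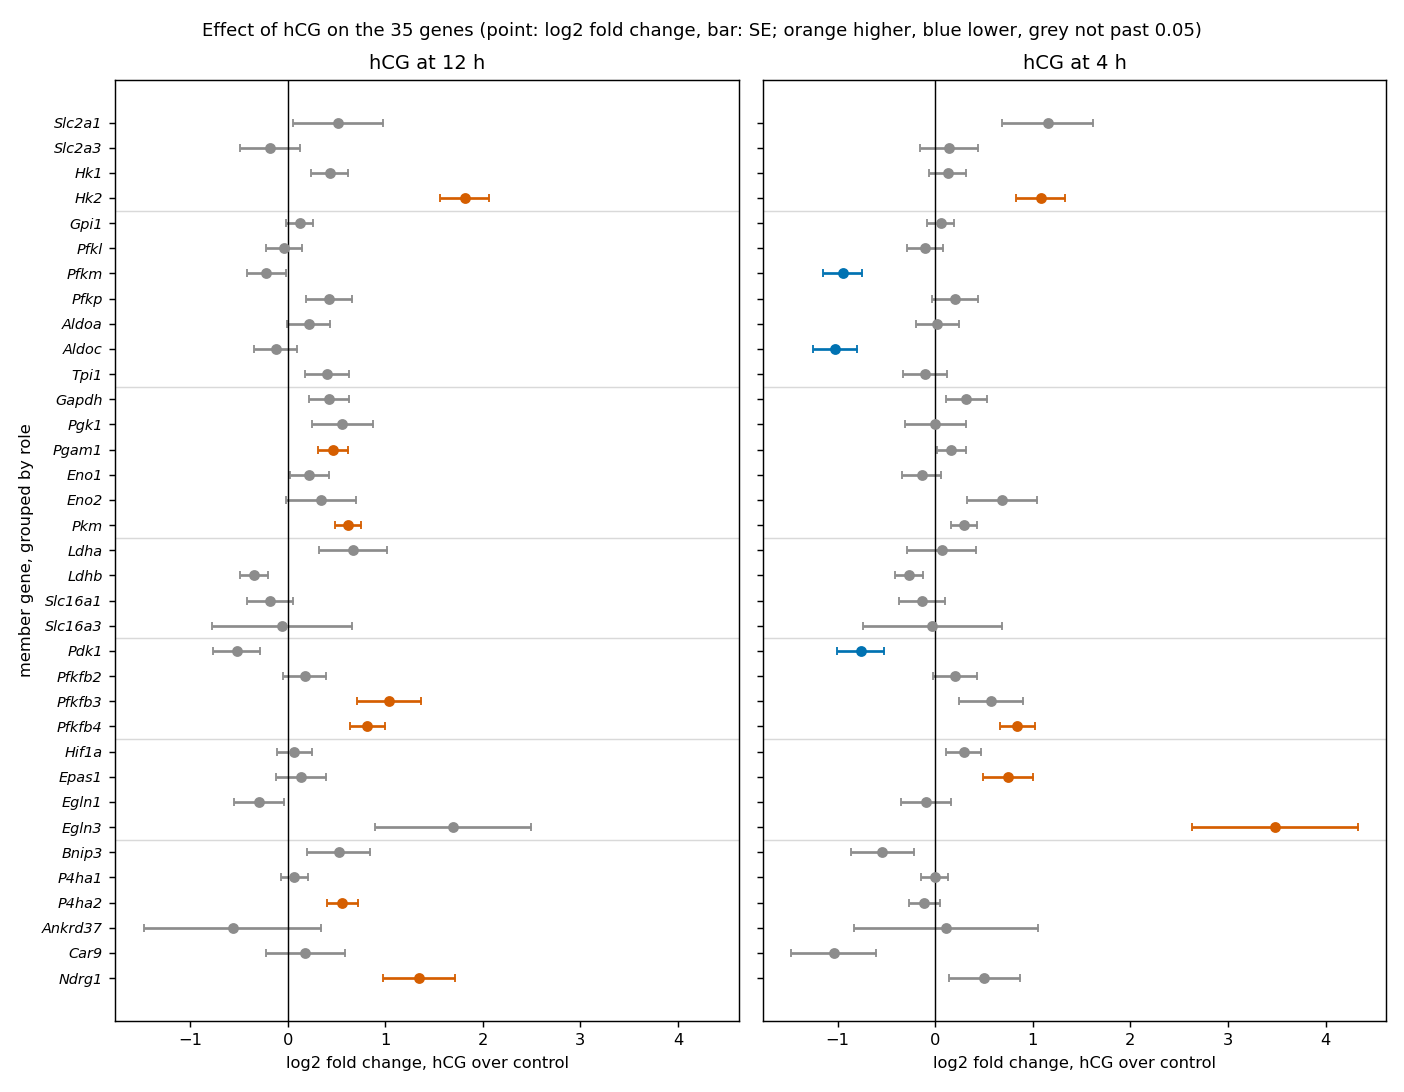
Log2 fold change of each of the 35 genes with hCG at 12 h (left) and at 4 h (right), hCG over control in siNC cells with 4 libraries a group; points are edgeR estimates, bars 1 SE, and colours mark calls at an adjusted p under 0.05. Hk2 and Pfkfb4 rose at both times, Egln3 was highest at 4 h with 3.48, and Pfkm, Aldoc and Pdk1 fell at 4 h.

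Among the oxygen-sensing genes, Egln3, a prolyl hydroxylase that marks HIF alpha subunits and is itself a HIF target, rose with hCG. At 4 h Egln3 had 47.9, 35.7, 32.4 and 89.1 CPM with hCG, against 5.72, 2.41, 3.13 and 7.06 CPM in controls. The groups did not overlap, and the level was 11.2-fold higher with hCG (log2 3.48 ± 0.85 SE, adjusted p = 0.00578). At 12 h it had 19.8, 16.0, 15.2 and 32.4 CPM with hCG, against 1.93, 1.396, 0.894 and 21.5 CPM in controls. The control library B_3 lay above 3 of the 4 hCG libraries, and the change of 1.69 ± 0.80 did not pass (adjusted p = 0.165). Without that control library it was 3.88 with an adjusted p of 0.000817, and with the replicate block 2.48 with an adjusted p of 0.000363. Egln3 was higher with hCG under 4 of 4 labels at both times.

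Egln1, the main prolyl hydroxylase for HIF alpha in most cells, had 65.5, 52.7, 62.1 and 62.7 CPM with hCG, against 61.1, 65.9, 71.5 and 99.4 CPM in controls at 12 h. It did not pass at either time, with log2 changes of −0.29 ± 0.26 at 12 h (adjusted p = 0.484) and −0.09 ± 0.26 at 4 h (adjusted p = 0.843). Hif1a, which encodes the HIF-1 alpha subunit, had 863, 989, 902 and 855 CPM with hCG at 12 h and 953, 928, 757 and 803 CPM in controls, so that the groups overlapped. Its changes of 0.07 ± 0.18 at 12 h and 0.29 ± 0.18 at 4 h did not pass (adjusted p = 0.83 and 0.298). Epas1, which encodes HIF-2 alpha, rose at 4 h. It had 58.4, 42.6, 31.7 and 58.4 CPM with hCG, against 24.3, 23.5, 22.3 and 43.8 CPM in controls at 4 h. The change was 0.75 ± 0.26 (adjusted p = 0.048), though the control B_3 overlapped the hCG libraries, and the call was lost under 7 of 17 alternatives, among them leaving out A_1, A_2 or B_2. At 12 h it had 17.4, 15.3, 15.2 and 26.9 CPM with hCG, against 21.8, 13.4, 12.6 and 20.2 CPM in controls, and the change was 0.14 ± 0.26 (adjusted p = 0.757).

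Hk2, the inducible hexokinase that traps glucose in the cell, rose at both times. At 12 h it had 140, 214, 178 and 257 CPM with hCG, against 56.6, 46.1, 39.9 and 81.8 CPM in controls, a 3.51-fold difference (log2 1.81 ± 0.25, adjusted p = 2.04e-05). At 4 h it had 139, 128, 117 and 136 CPM with hCG, against 44.7, 64.3, 61.2 and 75.8 CPM in controls (log2 1.08 ± 0.25, adjusted p = 0.00358). The groups did not overlap at either time, and the call held under each of the 17 alternatives tried. Hk1, the hexokinase of most resting tissues, changed by 0.43 ± 0.19 at 12 h, with an adjusted p of 0.128, or 0.043 with the block.

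Slc2a1 encodes GLUT1, the main basal glucose transporter. At 4 h it had 176, 111, 133 and 165 CPM with hCG, against 77.3, 52.7, 59.5 and 74.3 CPM in controls. All 4 hCG libraries were above all 4 controls, with a log2 change of 1.15 ± 0.47 that did not pass (adjusted p = 0.0904). It passed with the block (adjusted p = 0.0123) and without the siNTS library B_3 of 12 h (adjusted p = 0.00543). The latter library is outside this comparison and acts only through the shared fit. At 12 h Slc2a1 had 74.7, 57.4, 51.2 and 80.2 CPM with hCG, against 32.8, 31.0, 34.9 and 85.4 CPM in controls. The control B_3 was the highest of these 8 libraries, and the change of 0.52 ± 0.46 did not pass (adjusted p = 0.498). The differences under A_1, A_2, B_2 and B_3 were 1.18, 0.89, 0.55 and −0.09; without control B_3 the change was 1.0014 (adjusted p = 0.191), and without replicate B_3 0.90 (adjusted p = 0.017). Slc2a3, which encodes GLUT3, a transporter of high affinity, did not pass at either time (−0.18 ± 0.31 at 12 h and 0.14 ± 0.30 at 4 h, adjusted p = 0.723 and 0.787).

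**Figure D2:**
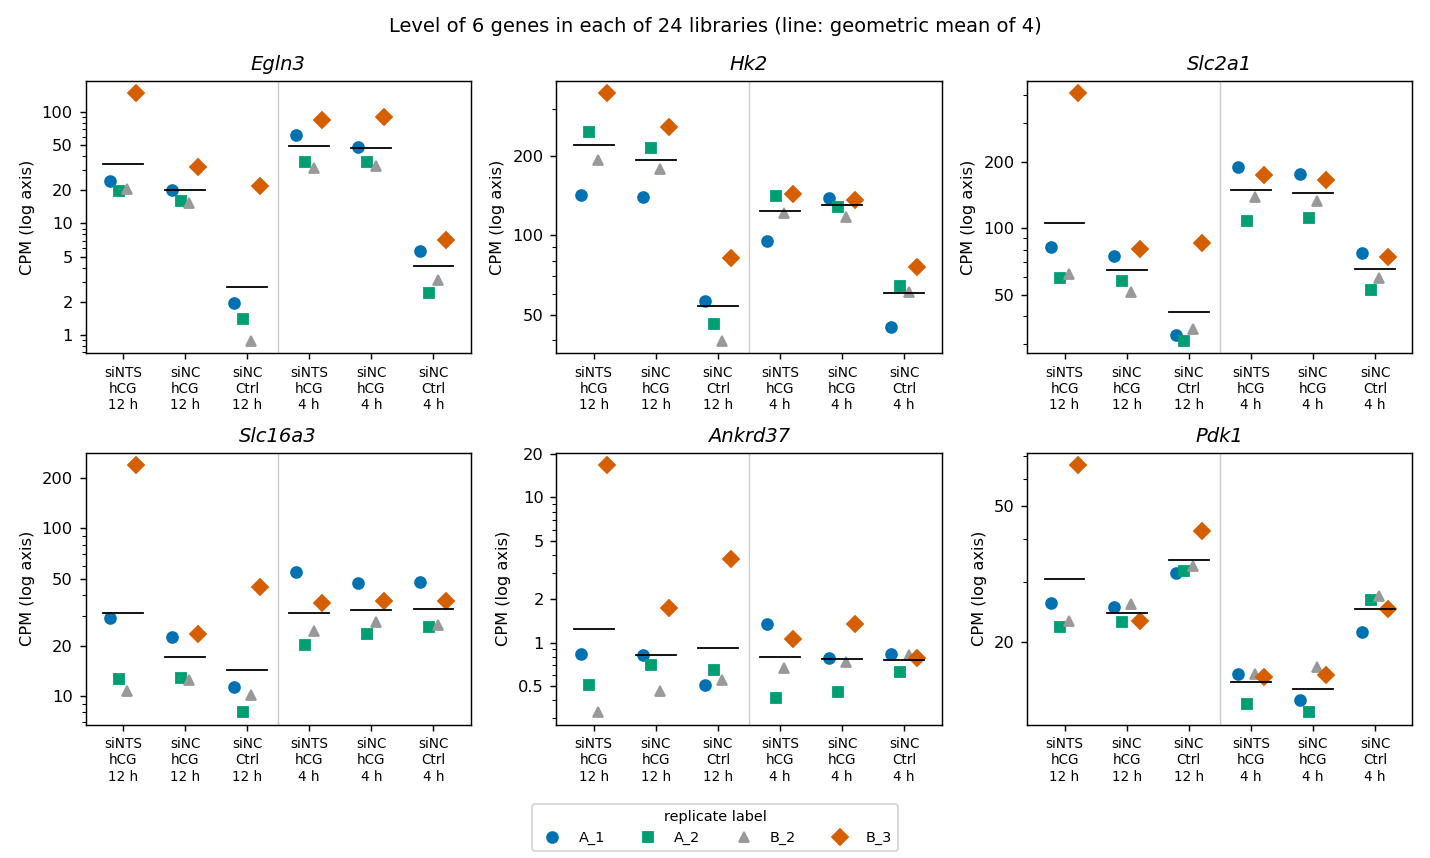
CPM on a log axis of Egln3, Hk2, Slc2a1, Slc16a3, Ankrd37 and Pdk1 in each of the 24 libraries, by group and replicate label, with lines at the geometric mean of the 4 libraries. The siNTS library B_3 at 12 h (leftmost diamonds) was the highest of the 24 for all 6, at 146 CPM for Egln3 and 239 CPM for Slc16a3.

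Of the 7 enzymes of upper glycolysis, 2 fell at 4 h. At 12 h 0 passed with edgeR, DESeq2 or limma-voom, with 0 at an unadjusted p under 0.05 and 1 with the block. Pfkm, the muscle-type phosphofructokinase, had 12.2, 19.8, 19.3 and 12.9 CPM with hCG, against 26.8, 38.6, 37.2 and 21.3 CPM in controls at 4 h (log2 −0.95 ± 0.20, adjusted p = 0.00169). Aldoc, the brain-type aldolase, had 4.01, 8.57, 6.91 and 5.88 CPM with hCG, against 10.98, 17.7, 12.6 and 10.4 CPM in controls at 4 h (log2 −1.02 ± 0.23, adjusted p = 0.0026). Neither set of groups overlapped. At 12 h the changes of Pfkm and Aldoc were −0.22 ± 0.20 and −0.12 ± 0.22 (adjusted p = 0.5 and 0.739). Pfkp, the platelet-type phosphofructokinase, changed by 0.42 ± 0.24 at 12 h, with an adjusted p of 0.253, or 0.0149 with the block. Gpi1, Pfkl, Aldoa and Tpi1, which encode the isomerase of glucose-6-phosphate, the liver-type phosphofructokinase, the main aldolase and triosephosphate isomerase, had log2 changes between −0.11 and 0.41 over both times, and none of them passed.

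Of the 6 members of lower glycolysis, 2 rose at 12 h. At 4 h 0 passed with edgeR, DESeq2, limma-voom or the block, and 1 had an unadjusted p under 0.05. Pkm, pyruvate kinase, which makes pyruvate and ATP in the last step, had 2947, 2098, 2224 and 2064 CPM with hCG, against 1462, 1437, 1687 and 1487 CPM in controls at 12 h. The groups did not overlap (log2 0.62 ± 0.13, adjusted p = 0.00172). Pgam1, phosphoglycerate mutase, had 978, 815, 870 and 782 CPM with hCG, against 515, 590, 759 and 632 CPM in controls at 12 h (log2 0.46 ± 0.15, adjusted p = 0.0358). This call was lost under 9 of 17 alternatives, among them leaving out any of the labels, control B_3 or control A_1. Gapdh, Pgk1, Eno1 and Eno2 encode the dehydrogenase, the kinase and the enolases of these steps, and all had positive log2 changes at 12 h, between 0.22 and 0.56, that did not pass.

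Of the 4 genes of lactate handling, 0 passed at either time with edgeR, DESeq2, limma-voom or the block; 1 had an unadjusted p under 0.05 at 12 h and 0 at 4 h. Ldha, the lactate dehydrogenase subunit that favours lactate formation, had 1063, 522, 618 and 580 CPM with hCG, against 340, 349, 538 and 520 CPM in controls at 12 h. The change was 0.67 ± 0.35, higher under 4 of 4 labels (adjusted p = 0.215), and at 4 h 0.06 ± 0.35 (adjusted p = 0.923). Ldhb, the subunit common in heart, had a change of −0.34 ± 0.14 (adjusted p = 0.114). Slc16a1 and Slc16a3 encode the monocarboxylate transporters MCT1 and MCT4, and their changes at 12 h were −0.18 ± 0.24 and −0.06 ± 0.72 (adjusted p = 0.641 and 0.967). The change of Slc16a3 turned to 0.86 without control B_3 (adjusted p = 0.513), and its differences under the labels were 0.99, 0.68, 0.30 and −0.93.

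The flux regulators moved in both directions. Pfkfb4 and Pfkfb3 encode bifunctional enzymes that make or remove fructose-2,6-bisphosphate, the activator of phosphofructokinase. Pfkfb4 had 17.8, 26.5, 20.8 and 24.6 CPM with hCG, against 15.2, 11.8, 12.2 and 11.7 CPM in controls at 12 h (log2 0.82 ± 0.18, adjusted p = 0.0022). At 4 h it had 20.4, 31.5, 24.7 and 23.2 CPM with hCG, against 12.1, 15.9, 14.4 and 13.3 CPM in controls (log2 0.84 ± 0.18, adjusted p = 0.00171). Pfkfb4 kept its call under all 17 alternatives at both times, with no overlap between groups. Pfkfb3 had 26.8, 46.9, 32.6 and 62.0 CPM with hCG, against 19.8, 18.1, 14.4 and 29.7 CPM in controls at 12 h. The groups overlapped through A_1 and control B_3, and the change was 1.04 ± 0.33 (adjusted p = 0.0327), with the call lost without replicate A_2, without replicate B_2 or without control A_1. At 4 h Pfkfb3 changed by 0.57 ± 0.33, with an adjusted p of 0.247, or 0.0246 with the block.

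Pdk1, a kinase that switches off pyruvate dehydrogenase and so keeps pyruvate out of mitochondria, fell at 4 h. It had 13.6, 12.5, 17.0 and 16.0 CPM with hCG, against 21.4, 26.6, 27.3 and 24.98 CPM in controls (log2 −0.76 ± 0.24, adjusted p = 0.0289); the call was lost without replicate A_1, A_2 or B_2. At 12 h it had 25.4, 22.9, 25.8 and 23.1 CPM with hCG, against 31.9, 32.2, 33.4 and 42.2 CPM in controls. All hCG libraries were again below all controls, but the change of −0.52 ± 0.24 did not pass (adjusted p = 0.15). It passed without the siNTS library B_3 (−0.52, adjusted p = 0.00346), which is outside this comparison and acts only through the shared fit. Pfkfb2, a further bifunctional enzyme, changed by 0.17 ± 0.22 at 12 h and 0.20 ± 0.22 at 4 h without passing.

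Of the 6 remaining hypoxia-response members, 2 rose at 12 h. At 4 h 0 passed with edgeR, DESeq2, limma-voom or the block, and 1 had an unadjusted p under 0.05. Ndrg1, a gene induced by hypoxia and stress, had 50.2, 52.0, 43.7 and 51.4 CPM with hCG, against 16.0, 13.4, 15.1 and 33.2 CPM in controls at 12 h, a 2.54-fold difference (log2 1.34 ± 0.37, adjusted p = 0.0134). P4ha2, a subunit of the collagen prolyl hydroxylase, had 32.3, 28.4, 31.7 and 26.3 CPM with hCG, against 21.2, 17.7, 20.5 and 21.2 CPM in controls at 12 h (log2 0.56 ± 0.16, adjusted p = 0.0181). Neither set of groups overlapped, and both calls were lost without replicate A_1, A_2 or B_2. Bnip3, which acts in mitophagy, had a change of 0.52 ± 0.32 at 12 h and of −0.54 ± 0.32 at 4 h (adjusted p = 0.307 and 0.276). P4ha1, Ankrd37 and Car9, the carbonic anhydrase often used as a hypoxia marker, did not pass at either time, and Car9 stayed below 1 CPM in all libraries.

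The difference between the hCG effects, 12 h minus 4 h, passed for 0 of 35 members. The background was 3.8% of all tested genes, 2.35% higher and 1.45% lower. An unadjusted p under 0.05 was found for 5 members and for 3001 of the 15405 tested genes. DESeq2 and limma-voom also called 0 members. With the replicate block P4ha2 (0.68, adjusted p = 0.0208) and Pfkm (0.72, adjusted p = 0.0231) had a higher effect at 12 h, and Epas1 a lower one (−0.64, adjusted p = 0.041), where 14.1% of all genes passed, 8.36% higher and 5.75% lower. For Hk2 the difference was 0.73 ± 0.35 (adjusted p = 0.253), and for Egln3 −1.79 ± 1.11 (adjusted p = 0.376). The Egln3 difference rests on control B_3 at 12 h: without that library it was 0.40 (adjusted p = 0.823). Neither effect was shown to differ between the times.

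The other genes of these pathways came from lists that hold none of the 35. Over all tested genes, 16.5% were called at 12 h and 19.1% at 4 h, or 27% and 30.1% with the block. Of the 15405 tested genes, 4384 had an unadjusted p under 0.05 at 12 h and 4824 at 4 h (edgeR). The counts of each list are descriptions to be read beside these shares. Of 8 other HIF pathway genes, 1 rose with hCG at each time, Siah2, a ubiquitin ligase that acts on EGLN proteins (0.51 ± 0.16 at 12 h and 0.49 ± 0.16 at 4 h, adjusted p = 0.0331 and 0.0361); with the block 3 passed at 12 h and 4 at 4 h. Of 35 other hypoxia-response genes, 5 rose and 2 fell at 12 h, and 4 rose and 0 fell at 4 h. With the block 7 rose and 3 fell at 12 h, and 5 rose and 2 fell at 4 h. The transcriptional repressor Bhlhe40 averaged 198 ± 46.2 CPM with hCG and 54.3 ± 21.6 CPM in controls at 12 h (SD, n = 4 each; log2 1.87 ± 0.25 SE, adjusted p = 1.07e-05), and changed by 1.28 ± 0.24 at 4 h (adjusted p = 0.000671). Rora, a nuclear receptor, averaged 119 ± 26.9 CPM with hCG and 30.0 ± 4.62 CPM in controls at 12 h (SD, n = 4 each; log2 1.99 ± 0.19 SE, adjusted p = 1.4e-07). Its effect was larger at 12 h than at 4 h by 1.90 (adjusted p = 0.000285), a call that held under all 17 alternatives. Tfrc, the transferrin receptor, rose by 0.92 at 12 h and 0.64 at 4 h (adjusted p = 0.000334 and 0.00746). Stc1, which encodes the hormone stanniocalcin, fell by 1.74 on the log2 scale at 12 h (adjusted p = 0.00606). The medians of this list were 0.023 at 12 h and 0.104 at 4 h.

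Among 17 other glycolysis and lactate genes, 1 rose and 0 fell at 12 h, and 1 rose and 3 fell at 4 h. Eno3, the muscle enolase, rose by 0.94 at 12 h (adjusted p = 0.00102), more than at 4 h by 1.11 (adjusted p = 0.0203); the call of the difference was lost without A_1, A_2 or B_3 and within culture date 04_29_2021. Ldhd, the D-lactate dehydrogenase, fell by 0.88 at 4 h (adjusted p = 0.000409), with a higher effect at 12 h by 1.03 (adjusted p = 0.00914); this difference lost its call without A_1, A_2 or B_2 and within that date. Slc2a8, a glucose transporter, and Galm, which interconverts the sugar's anomers, fell at 4 h by 0.92 and 1.17 (adjusted p = 0.00104 and 0.00176). Pgm2, a phosphoglucomutase, rose by 0.54 at 4 h (adjusted p = 0.0185). The list's medians were 0.117 at 12 h and −0.34 at 4 h.

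Of 13 genes of pyruvate entry into mitochondria, 3 rose and 4 fell at 12 h, and 1 rose and 3 fell at 4 h. The kinases Pdk2 and Pdk4, which inhibit pyruvate dehydrogenase as Pdk1 does, fell at both times. Pdk4 averaged 29.6 ± 1.48 CPM with hCG and 87.0 ± 33.7 CPM in controls at 12 h (SD, n = 4 each; log2 −1.56 ± 0.18 SE, adjusted p = 1.23e-06), and changed by −0.99 ± 0.17 at 4 h (adjusted p = 0.000289). Pdk2 changed by −0.69 ± 0.15 at 12 h and −1.14 ± 0.16 at 4 h (adjusted p = 0.00255 and 1.97e-05). Pdk3, a further such kinase, fell by 0.53 at 4 h (adjusted p = 0.036). Pdha1, the alpha subunit of the dehydrogenase itself, rose by 0.41 at 12 h and 0.25 at 4 h (adjusted p = 0.000641 and 0.0251). Pdp1, a phosphatase that switches the enzyme back on, fell by 0.52 at 12 h (adjusted p = 0.00407), so the called genes include members of opposite action. The medians were 0.185 at 12 h and −0.163 at 4 h.

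Of 8 pentose phosphate genes, Taldo1, transaldolase, rose at 12 h (0.85 ± 0.18, adjusted p = 0.00151), and 0 passed at 4 h; there 3 had an unadjusted p under 0.05, limma-voom called 0, DESeq2 1 and the block 2. Of 16 tricarboxylic acid cycle genes, Dlst and Idh3a rose at 12 h (0.24 and 0.55, adjusted p = 0.0222 and 0.048), and Suclg2 fell at 4 h (−0.47, adjusted p = 0.0319), or 4 fell with the block. Of 12 glycogen genes, the branching enzyme Gbe1 rose at 4 h (0.70 ± 0.16, adjusted p = 0.00313), with 2 called under the block. At 12 h 0 passed with edgeR, DESeq2, limma-voom or the block, and 2 had an unadjusted p under 0.05. Of 3 gluconeogenesis genes, Pck2, the mitochondrial phosphoenolpyruvate carboxykinase, fell at 4 h (−0.63 ± 0.19, adjusted p = 0.0237), with 3 called under the block. At 12 h 0 passed with edgeR, DESeq2 or limma-voom and 2 with the block, and 0 had an unadjusted p under 0.05.

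Among the list genes named here, the hCG calls of Bhlhe40 and Pdk4 at both times, of Rora, Tfrc and Pdha1 at 12 h, and of Ldhd, Slc2a8, Galm, Pdk2 and Gbe1 at 4 h held under all 17 alternatives. Leaving out a label ended the calls of Siah2 at both times (A_1, A_2 or B_2), of Stc1 (A_2 or B_3), Pdp1 (A_2 or B_2) and Pdk2 (A_2) at 12 h, and of Tfrc (A_2) and Pgm2, Pdha1 and Pck2 (A_2, B_2 or B_3) at 4 h. The same held for Dlst and Idh3a at 12 h and Pdk3 at 4 h with any label, and for Suclg2 at 4 h with A_1, A_2 or B_2. Those of Eno3 and Taldo1 at 12 h were lost within culture date 04_29_2021 alone.

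Ratios between paralogs were taken within each library, as a description with no test; since CPM is not scaled by length, only the change of a ratio between groups is read. Hk2 over Hk1 was 1.25, 1.64, 1.41 and 1.63 with hCG at 12 h, against 0.546, 0.473, 0.505 and 0.741 in controls. At 4 h it was 1.503, 1.45, 1.31 and 1.51 with hCG, against 0.753, 0.681, 0.679 and 0.874 in controls. On the log2 scale the mean ratio was higher with hCG by 1.4 at 12 h and 0.96 at 4 h, with no overlap of the groups at either time. Ldhb over Ldha was 0.147, 0.271, 0.248 and 0.226 with hCG at 12 h, against 0.420, 0.536, 0.446 and 0.326 in controls, again with no overlap. At 4 h this ratio was 0.101, 0.1855, 0.138 and 0.188 with hCG, against 0.140, 0.235, 0.1856 and 0.224 in controls, and the groups overlapped. Egln3 over Egln1 differed by 3.16 at 12 h and 3.59 at 4 h on the log2 scale. Pfkp over Pfkl was higher with hCG by 0.47 at 12 h and 0.31 at 4 h, and P4ha2 over P4ha1 by 0.48 at 12 h, against −0.11 at 4 h. Aldoc over Aldoa differed by −0.33 at 12 h and −1.08 at 4 h. Eno2 over Eno1, Slc2a3 over Slc2a1, Slc16a3 over Slc16a1 and Epas1 over Hif1a differed by 0.28, −0.77, 0.46 and 0.06 at 12 h, and by 0.83, −1.01, 0.12 and 0.47 at 4 h. At 12 h the first of these ran from 0.02 without B_2 to 0.92 without A_1, that of Slc16a3 from 0.23 without A_2 to 0.77 without B_3, and that of Epas1 was −0.02 without B_3.

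**Figure D3:**
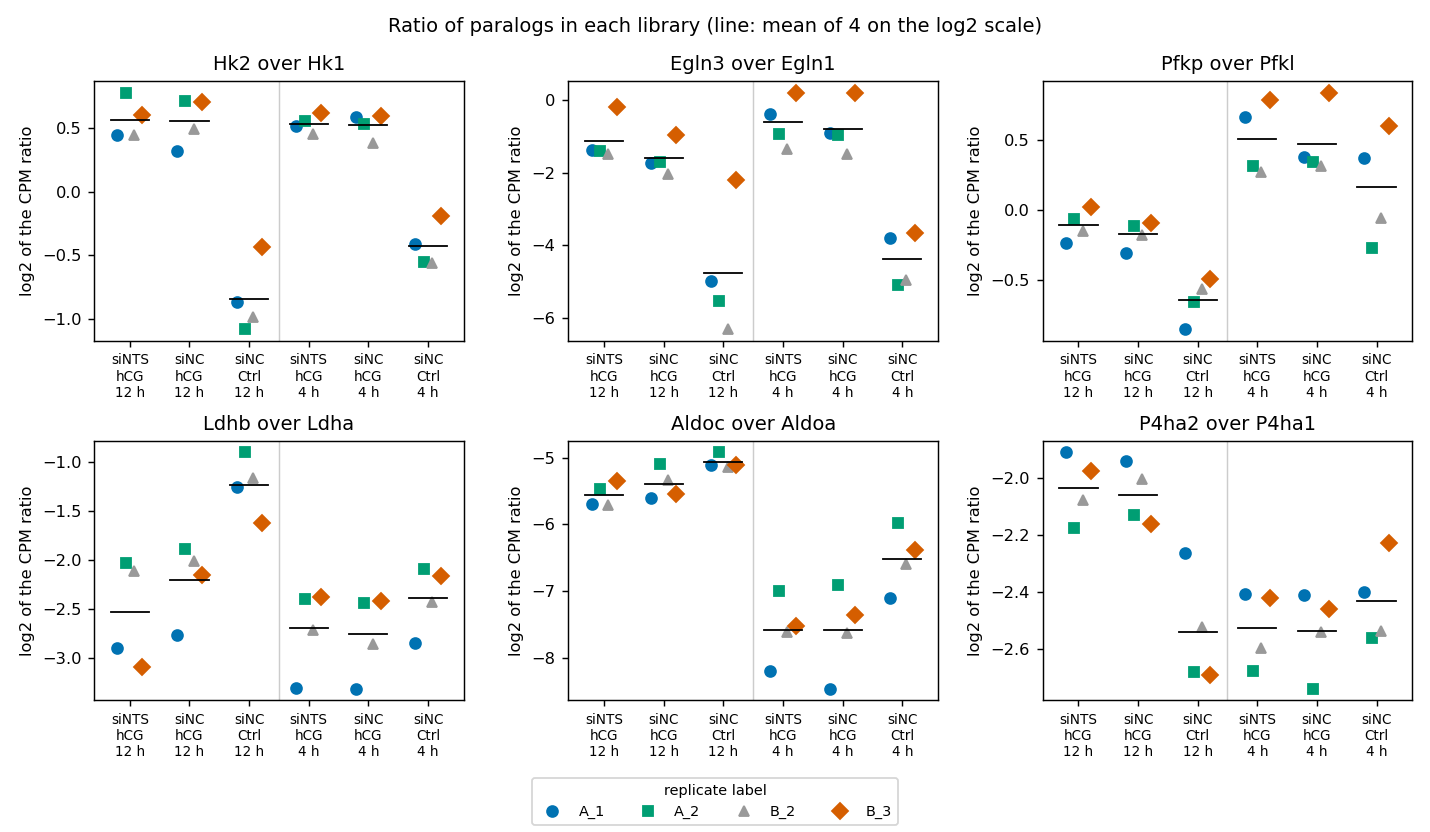
Log2 ratio of the CPM of 6 paralog pairs in each of the 24 libraries, by group and replicate label, with lines at the mean of 4. Hk2 over Hk1 was above 0 in all hCG libraries and below 0 in all controls, and Ldhb over Ldha was highest in controls at 12 h, with ratios between 0.326 and 0.536.

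The summed share of the 17 glycolytic enzymes gives their joint weight in the library. With hCG at 12 h they held 1.43%, 1.02%, 1.14% and 1.09% of all counts, against 0.868%, 0.879%, 1.06% and 1.00% in controls, so the groups overlapped. The means were 1.17 ± 0.18% with hCG and 0.953 ± 0.094% in controls (SD, n = 4 each), a log2 ratio of 0.30 that was 0.15 without replicate A_1. At 4 h the means were 0.995 ± 0.091% with hCG and 0.940 ± 0.068% in controls. In siNTS cells the share was 1.43%, 1.00%, 1.17% and 1.67% at 12 h and averaged 0.991 ± 0.099% at 4 h. The B_3 value of 1.67% was the highest of all libraries, and the log2 ratio of siNTS over siNC means at 12 h was 0.17 with replicate B_3 and 0.0064 without it.

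Time without hCG was compared between controls at 12 h and controls at 4 h. Among the members 5 rose and 4 fell, where 30.8% of all tested genes passed, 14.8% higher and 16% lower; the median was −0.082 over the members and −0.007 over all genes. With the block 5 rose and 8 fell, where 43.3% of all genes passed, 21.9% higher and 21.4% lower. The label did not pair the libraries of A_1 or B_2 here (correlations of −0.647 and 0.008), which limits calls with the block. The groups did not overlap for 4 members that were higher and 5 that were lower, as for 13.4% and 14% of all genes (27.4% in all). Without replicate A_1, A_2 or B_2 in turn 1 member fell, without B_3 9 fell, and without the siNTS library B_3 alone 8 rose and 7 fell. That siNTS library is not part of this comparison and acts only through the shared fit. The share of all tested genes called in these fits is not given, so their counts are not read as a result about the members. Granulosa markers summed to between 2740 and 3020 CPM at 12 h and between 3800 and 4740 CPM at 4 h. Inha, at 1940 to 2700 CPM at 4 h, weighed most in this sum. Inha, Cyp19a1 and Fst were lower in all controls at 12 h than in all controls at 4 h, while Fshr, Amhr2, Foxl2 and Nr5a2 were higher. Leukocyte markers summed to between 5.26 and 8.8 CPM at 12 h and between 12.4 and 21.9 CPM at 4 h. Endothelial markers summed to between 8.02 and 9.09 CPM at 12 h and between 6.81 and 7.81 CPM at 4 h, and surface epithelial markers to between 0.565 and 1.22 CPM at 12 h and between 2.97 and 4.85 CPM at 4 h. Erythrocyte markers were lower at 12 h under each label, with the values given above. The part of these markers in the results was not tested. Aldoc had 31.8, 40.3, 44.1 and 35.6 CPM at 12 h, against 10.98, 17.7, 12.6 and 10.4 CPM at 4 h (log2 1.55 ± 0.23, adjusted p = 2.59e-05). Pfkm had 85.8, 80.4, 71.6 and 64.6 CPM at 12 h, against 26.8, 38.6, 37.2 and 21.3 CPM at 4 h (log2 1.29 ± 0.20, adjusted p = 5.07e-05). All controls at 12 h were above all controls at 4 h for both enzymes. Both were lower with hCG at 4 h, and the 2 comparisons share the controls at 4 h. Ldhb (0.63 ± 0.14, adjusted p = 0.00225), Pkm (0.47 ± 0.13, adjusted p = 0.00841) and Pfkfb2 (0.72 ± 0.22, adjusted p = 0.0177) also rose.

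Pgk1, phosphoglycerate kinase, fell, with 267, 277, 418 and 382 CPM at 12 h, against 1108, 479, 562 and 507 CPM in controls at 4 h (log2 −0.98 ± 0.31, adjusted p = 0.0211). The A_1 control at 4 h was the highest library, and the call was lost without replicate A_1, without the control A_1 at 12 h and within culture date 04_29_2021. Epas1 fell as well, with 21.8, 13.4, 12.6 and 20.2 CPM at 12 h, against 24.3, 23.5, 22.3 and 43.8 CPM at 4 h (log2 −0.75 ± 0.26, adjusted p = 0.0338). P4ha2 and P4ha1 fell by 0.54 and 0.42 (adjusted p = 0.0133 and 0.022). Of the 9 calls, those of Aldoc and Pfkm held under all 17 alternatives, and the other 7 were each lost under 1 to 5 of them: Ldhb without B_2, Pkm without B_2 or B_3, Pfkfb2 without A_1 or A_2, Epas1 without A_2, B_2 or B_3, P4ha1 and P4ha2 without A_1, A_2 or B_2, and Pgk1 as above. With the block, Ndrg1 and Slc16a1 also fell (−1.0004 and −0.53, adjusted p = 0.00738 and 0.0119), as did Pfkp and Pfkfb3 (−0.48 and −0.67, adjusted p = 0.0054 and 0.00864). Egln3 changed by 0.49 ± 0.80 (adjusted p = 0.669), and Slc2a1 by −0.52 ± 0.46 (adjusted p = 0.416). Both values rest on control B_3 at 12 h. Without it Egln3 changed by −1.69 (adjusted p = 0.0748) and Slc2a1 by −1.0019 (adjusted p = 0.127), and without replicate B_3 both fell, Egln3 by 1.41 and Slc2a1 by 0.94 (adjusted p = 0.00878 and 0.00829).

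**Figure D4:**
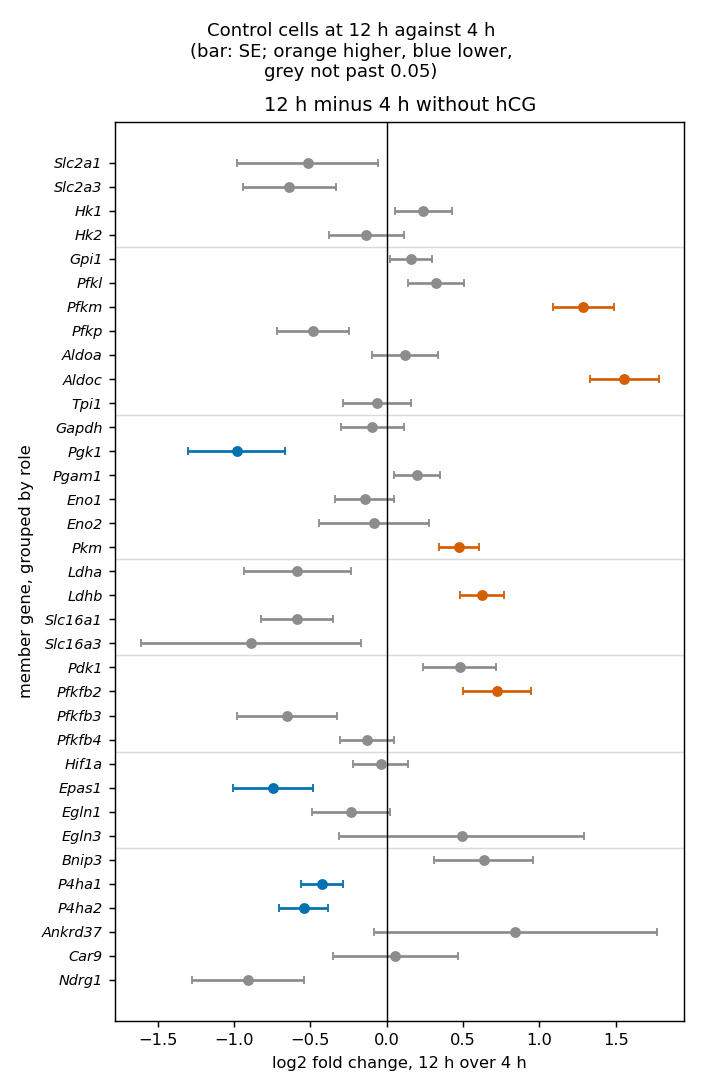
Log2 fold change of each of the 35 genes in control cells, 12 h over 4 h, with 4 libraries a group; points are edgeR estimates, bars 1 SE, and colours mark calls at an adjusted p under 0.05. Aldoc and Pfkm had the largest increases, 1.55 and 1.29, and Pgk1 the largest called decrease, −0.98.

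The siRNA comparison asks whether the loss of Nts changes these genes in cells given hCG. At 4 h 0 of 35 members passed, and DESeq2, limma-voom and the block also called 0. The background was 0.00649% of all tested genes, or 0.0195% with the block. An unadjusted p under 0.05 was found for 0 members and for 131 of the 15405 tested genes. Groups that did not overlap, 0.708% of all genes, included 0 members at 4 h. The log2 changes at 4 h lay between −0.12 and 0.19 with a median of 0.006. At 12 h 0 members passed with edgeR, where 0.162% of all tested genes did, 0.0454% higher and 0.117% lower. At that time 7 members and 560 of the 15405 tested genes had an unadjusted p under 0.05. The block, under which 0.591% of all genes passed, and limma-voom called 0 members, and DESeq2 called 1, Slc2a3. The median log2 change at 12 h was 0.277 over the members and 0.016 over all genes, and 32 of 35 were positive. The siNC libraries with hCG at 12 h serve both in this comparison and in that of hCG.

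The changes at 12 h came mostly from label B_3. Between the B_3 libraries, siNTS minus siNC, 15 members differed by more than 1 on the log2 scale, as did 2.38% of all tested genes, and the median was 0.823 over the members and −0.004 over all genes. Under A_1, A_2 and B_2 the medians over the members were 0.037, −0.011 and 0.015, with 1, 0 and 0 members above 1. Erythrocyte markers summed to 169 CPM in the siNTS library B_3 and 104 CPM in the siNC library B_3. The part of cell types in the values of this siNTS library was not tested. Nts itself, at 2.73 CPM, was higher in this library than in the other siNTS libraries at 12 h. Beyond the culture date of its label, the labels name no difference in how this library was made, and its part in the results cannot be told apart from the siRNA under that label.

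**Figure D5:**
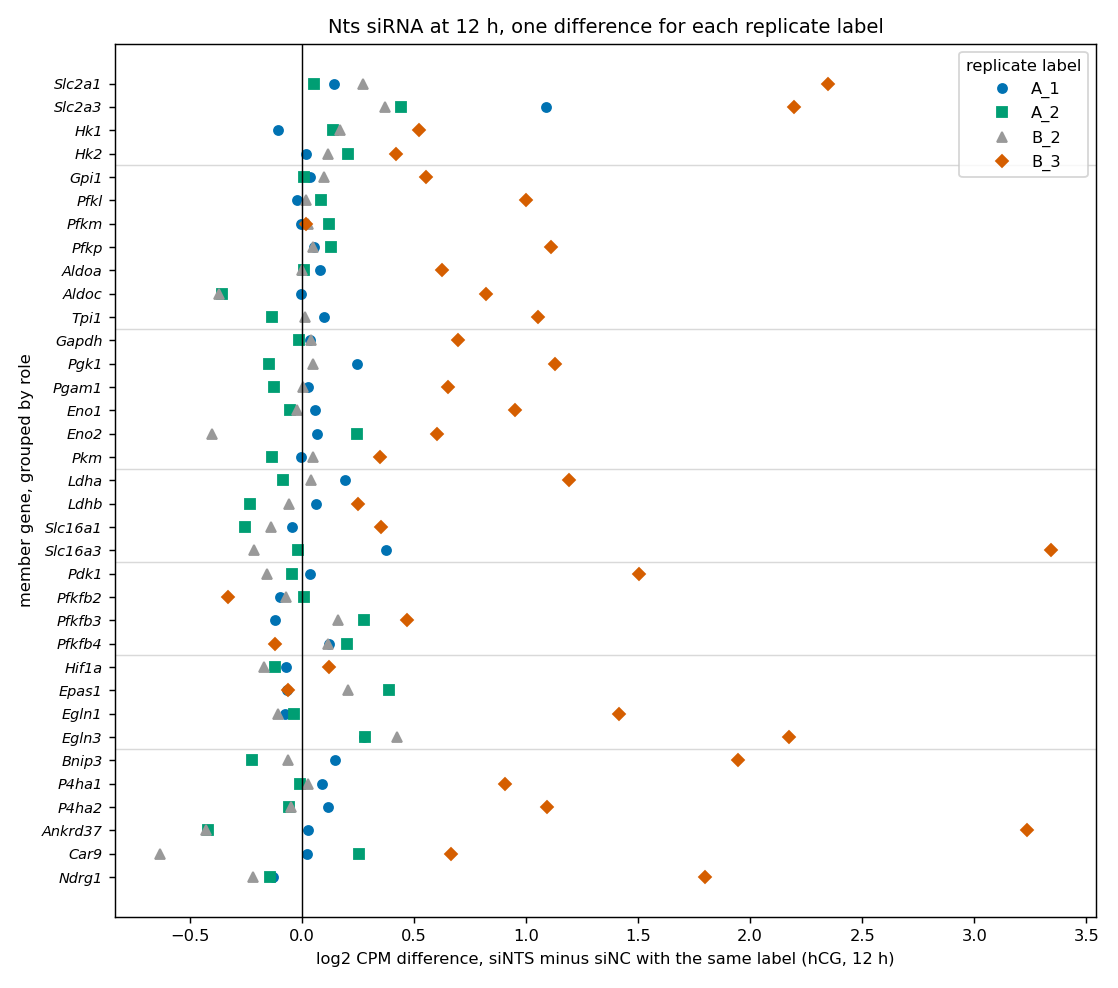
Log2 CPM difference of each of the 35 genes at 12 h, siNTS minus siNC with hCG, with a point for each replicate label. The B_3 points (diamonds) reach 3.34 for Slc16a3 and have a median of 0.823, while the points of A_1, A_2 and B_2 lie mostly near 0.

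Slc2a3 had the smallest unadjusted p of the members (0.000575). It had 5.73, 3.28, 3.54 and 11.6 CPM in siNTS cells at 12 h, against 2.66, 2.395, 2.73 and 2.501 CPM in siNC cells with hCG. All 4 siNTS libraries were above all 4 siNC libraries, for this member alone and for 1.05% of all tested genes (2.46% in either direction), with differences of 1.09, 0.44, 0.37 and 2.20 on the log2 scale. The fitted change was 1.23 ± 0.31 (edgeR adjusted p = 0.171), with adjusted p = 0.0572 under the block and 0.0196 in DESeq2. The authors' deposited table lists Slc2a3 at a log2 fold change of 1.02 with an adjusted p of 0.00617. Without the siNTS library B_3 the change was 0.70 with an adjusted p of 0.974.

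For Slc2a1 the 12 h values were 82.5, 59.5, 61.9 and 408 CPM in siNTS cells, against 74.7, 57.4, 51.2 and 80.2 CPM in siNC cells with hCG. The change of 1.22 ± 0.47 (adjusted p = 1) became 0.05 without the siNTS library B_3. Slc16a3 had 29.2, 12.7, 10.7 and 239 CPM in siNTS cells, against 22.5, 12.8, 12.5 and 23.5 CPM in siNC cells with hCG (2.03 ± 0.74, adjusted p = 0.897). Its change was −0.02 without that library. Ankrd37, a small ankyrin-repeat gene known as a HIF target, had 0.831, 0.510, 0.331 and 16.7 CPM in siNTS cells, against 0.815, 0.698, 0.463 and 1.73 CPM in siNC cells with hCG. Its change of 2.30 ± 0.92 (adjusted p = 1) became −0.74 without B_3.

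Egln3 had 24.01, 19.4, 20.4 and 146 CPM in siNTS cells, against 19.8, 16.0, 15.2 and 32.4 CPM in siNC cells with hCG (1.33 ± 0.78, adjusted p = 1). It was higher in siNTS cells under 4 of 4 labels, by 0.28, 0.28, 0.42 and 2.17, and the fitted change was 0.03 without the siNTS library B_3. Pdk1 had 26.04, 22.2, 23.1 and 65.7 CPM in siNTS cells, against 25.4, 22.9, 25.8 and 23.1 CPM in siNC cells with hCG (0.50 ± 0.24, adjusted p = 1), a change that became −0.03 without that library. Bnip3 had 229, 152, 156 and 573 CPM in siNTS cells, against 206, 178, 163 and 149 CPM in siNC cells with hCG (0.67 ± 0.32, adjusted p = 1, or 0.04 without it). For Hk2, Ldha and Hif1a the changes were 0.23 ± 0.25, 0.40 ± 0.35 and −0.06 ± 0.18, none of which passed. Between the B_3 libraries Hif1a, Ldhb, Pfkm and Pfkfb4 differed by 0.12, 0.25, 0.02 and −0.12, while 15 other members differed by more than 1.

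The same library was high for genes outside the 35. Of 35 other hypoxia-response genes, 13 lay more than 1 log2 unit above the other 3 siNTS libraries, and 17 were at their highest of all 24 there. Of all tested genes, 4.1% and 3.72% did so. Named after their values were seen, the angiogenic factor Vegfa had 274 CPM in the siNTS library B_3 against 139 CPM in the siNC library B_3, and the oxidase Ero1a 276 CPM against 81.3 CPM. The mitochondrial kinase Ak4 had 151 CPM in the siNTS library against 27.7 CPM in the siNC library, and Hilpda, a lipid-droplet gene, 79.9 CPM against 13.2 CPM. Of 12 glycogen genes 4 lay more than 1 log2 unit above the other siNTS libraries, 2 of them also in the hypoxia list. None of the 16 tricarboxylic acid cycle genes, 13 genes of pyruvate entry, 8 pentose phosphate genes or 17 other glycolysis and lactate genes did so. No gene of the 8 lists passed in the siRNA comparison at either time with edgeR. At 12 h 6 of the 35 hypoxia-response genes had an unadjusted p under 0.05, as did 560 of the 15405 tested genes. With the block, Cited2, an inhibitor of HIF transcription, passed at 12 h (0.32, adjusted p = 0.0484). The difference between the siRNA effects, 12 h minus 4 h, passed for 0 members, with a background of 0% of all tested genes. An unadjusted p under 0.05 was found for 1 member and for 116 of the 15405 tested genes. DESeq2, limma-voom and the block also called 0.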

How the data were processed

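RNA was measured in 24 libraries, made with a stranded kit per the labels' protocols. The authors deposited estimated counts for each gene and library, with no scaling to a common total. Log2 fold changes and adjusted p-values that the authors deposited for their own contrasts were used only where they are named as such. The submitters' processing notes list the build GRCm39 and, with no role given, R 4.1.0 and the quantifier Salmon 1.4.0. Reads shared between near-identical copies can be split in such estimates; of copies named after a member, Eno1b held 0.0227% of the count of Eno1.

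Estimated counts were rounded, and filterByExpr left 15405 genes with 99.97% of the counts. All 24 libraries entered 1 quasi-likelihood fit without a block (edgeR 4.0.16 in R 4.3.3, TMM), from which 7 contrasts were tested at 0.05 after Benjamini-Hochberg adjustment over all tested genes. Standard errors are the size of the log2 change divided by the root of F. Log2 differences between single libraries used a prior count of 2. All 36 pairs of libraries within a group differed by more than sampling noise, with a chi-square of at least 23.3 per degree of freedom. The fits were tested on simulated data.

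The labels tie each replicate label to a culture date, so labels pair libraries across groups. Deviations of same-label libraries from their group means correlated above 0.1 in 17 of 20 pairs (median 0.53, lowest −0.692, highest 0.957). Under A_1 the correlation was −0.692 for hCG at 12 h and −0.647 over time without hCG. Both of these pairs hold the control A_1 at 12 h. Under B_2 over time it was 0.008. The label thus did not pair these libraries, which limits calls made with the block for hCG at 12 h and over time. The labels do not say whether A_2 and B_2 were separate pools of cells; p-values then cover the spread between libraries, which can be technical.

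Members and lists were chosen with earlier results of these data known. One gene of the list of other glycolysis and lactate genes is not reported here and was left out of its counts. Library values were given for members past 0.05 in the hCG or siRNA contrasts or their differences, at most 8 a contrast, and for Hif1a, Epas1, Egln1, Egln3, Hk2, Ldha, Slc2a1 and Pdk1. At most 4 genes of a list were named in a contrast, by smallest adjusted p. Library values of other members, and the genes named for the comparison over time and for the siNTS library B_3, were picked after their values were seen. Alternatives were RLE factors, no filter on low counts, a stricter filter on mean CPM, DESeq2 1.42.0, limma-voom (limma 3.58.1), the label or the date as a block, the groups of a contrast alone, each label left out, and culture date 04_29_2021 alone. Fits without single libraries were added after seeing the data. The libraries left out were the siNTS library B_3, with and without the block, and the controls B_3 and A_1, all at 12 h. For a contrast that does not hold the library, such a fit acts only through what all libraries share. It is then a weak check of the call.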

Additional observations from a re-analysis of the deposited data

Results flagged for a closer look

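Of 210 combinations of a member and a group, 30 had a library whose gap to the nearest of the others exceeded Dixon's critical value. Independent values with a normal distribution would give about 1 in 20, or 10.5. CPM were used without a log and members share libraries, so 10.5 is only a rough guide. The siNTS library B_3 at 12 h accounted for 11 of the 30. It was the highest of its group for Slc2a1 (408.3 CPM), Pfkl (180.9 CPM), Pfkp (183.3 CPM), Slc16a3 (238.9 CPM), Pdk1 (65.74 CPM), Egln1 (167 CPM), Egln3 (146.2 CPM), P4ha1 (220.9 CPM), Ankrd37 (16.72 CPM) and Ndrg1 (178.7 CPM), and the lowest for Pfkm (58.94 CPM). The control library B_3 at 12 h accounted for 7, all high: Slc2a1 (85.42 CPM), Pfkp (72.2 CPM), Slc16a3 (44.87 CPM), Pdk1 (42.18 CPM), Egln3 (21.53 CPM), Ankrd37 (3.772 CPM) and Ndrg1 (33.21 CPM). Of these 7 genes, all were also high in the siNTS library of the same label.

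At 12 h Pgk1 was also high in siNC A_1 with hCG (712.7 CPM) and Pfkfb4 in control A_1 (15.2 CPM). Among siNTS libraries at 4 h, A_2 was low for Pdk1 (13.22 CPM) and P4ha2 (23.99 CPM), and B_3 was high for Pfkfb3 (64.11 CPM). Among siNC libraries with hCG at 4 h, A_1 was low for Ldhb (89.75 CPM), B_2 high for Pgam1 (685.2 CPM) and B_3 high for Hif1a (1486 CPM). Among controls at 4 h, A_1 was high for Pgk1 (1108 CPM), A_2 for Eno2 (4.967 CPM) and B_3 for Epas1 (43.8 CPM) and P4ha2 (33.42 CPM).

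The effect of hCG differed between 12 h and 4 h, 12 h minus 4 h, for these genes of the pathway lists: Rora (1.90), Eno3 (1.11) and Ldhd (1.03). The call of Rora held under all 17 alternatives, and those of Eno3 and Ldhd were each lost under 4, among them 3 of the 4 fits without a label.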

How the results depend on the processing

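Over 48 results of single members, called with or without the block or named for their dependence on a library, and 815 alternative values, 664 kept direction and call, 52 lost the call, 69 gained one and 30 reversed. The share of all tested genes called is given above only for the main fit and the replicate block. Counts from other fits are therefore not read as a result about the members. Counts of members called moved by more than 1.5 times as follows, the cause not being tested. With the replicate block, the difference of the hCG effects had 2 members higher and 1 lower, and the change over time without hCG 8 lower; the block moved no other count of called members that far. With the date block these were 2 higher and 8 lower. With the groups of a contrast alone, 1 member was lower with hCG at 12 h and 1 was higher in the difference of the hCG effects. Within culture date 04_29_2021, 1 was lower with hCG at 12 h, 1 higher in the difference and 10 lower over time. DESeq2 called 1 member higher with the Nts siRNA at 12 h. The block without the siNTS library B_3 at 12 h gave 12 higher and 1 lower with hCG at 12 h, 8 higher at 4 h, 5 higher and 1 lower in the difference, and 8 higher and 11 lower over time. Leaving out a label or a library gave 3 (without A_2 or B_2) to 9 members higher and 0 to 1 lower (without A_1, control A_1 or the siNTS library B_3) with hCG at 12 h, 0 to 2 higher in the difference (2 without B_3), and 3 (without B_2) to 8 higher and 1 (without A_1, A_2 or B_2) to 9 lower over time. Among reversals, Slc16a3 with hCG at 12 h (−0.06) was 0.2529 in limma-voom, 0.2402 with the block, 0.2384 with the date block, 0.4757 within date 04_29_2021, 0.0839 with the block without the siNTS library B_3, and −0.3746 to 0.8608 without single labels or libraries. The Egln3 difference of hCG effects was 0.1033 within that date and −2.2512 to 0.3962 without labels or libraries. Egln3 over time was −0.6161 in limma-voom, −0.2086 with the block, −0.2292 with the date block, −1.2534 within that date (adjusted p = 0.00309), −0.1188 with the block without the siNTS library B_3, and −1.6925 to 0.9355 without labels or libraries. The other reversals were of the Nts siRNA at 12 h, and none of those passed the threshold. Leaving out a label or a library gave −0.0241 to 2.44 for Slc16a3, −0.0536 to 0.67 for Pdk1, −0.0266 to 0.88 for Bnip3 and −0.74 to 2.61 for Ankrd37 (log2). Within culture date 04_29_2021 the changes were −0.11 for Slc16a3, −0.11 for Pdk1, −0.15 for Bnip3 and −0.46 for Ankrd37, and with the block without the siNTS library B_3 −0.0045 for Pdk1, −0.0369 for Bnip3 and −0.32 for Ankrd37. Levels near 1 CPM, as of Ankrd37 and Car9, rest on few counts and limit what can be seen.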
